A study of Mus musculus with 16 samples.

Results

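The interferon-stimulated genes followed here were a list of 49 mouse gene names. The rule that sets the list uses no measured value, but the list was chosen with earlier results of these data known. All 49 were found once in each of the deposited gene tables, out of 55414 genes for microglia and 56980 for astrocytes, and all 49 passed the filter on low counts in both cell types. RNA was sequenced from microglia, the resident macrophages of the brain, and from astrocytes, of mice that carried neither, either or both of a microglial Rack1 conditional knockout (CKO) and a mouse model of Alzheimer's disease (AD). The genotypes were WT, Rack1 CKO (called CKO), WT AD (AD WT) and Rack1 CKO AD (AD CKO), with 2 libraries per group and cell type and 16 libraries in all. The sources used here do not state which AD model and Cre line were used, the age of the mice, the isolation of the cells, or whether both libraries in a group are from separate animals, so p-values measure only the spread between these libraries. RACK1 is a ribosomal scaffold that also binds protein kinases.

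Interferons are secreted proteins that warn cells of infection. Type I interferons bind the receptor IFNAR1/IFNAR2, and the kinases JAK1 and TYK2 then activate transcription factors, STAT2 and IRF9 among them, that bind the interferon-stimulated response element (ISRE) in target promoters. Interferon gamma has a receptor of its own and acts through the gamma-activated site (GAS). The target genes encode proteins that sense, bind, edit or degrade viral RNA and DNA, block entry, release or replication of viruses, or coat vacuoles of intracellular microbes. In brains of AD models part of the microglia are known to carry such a transcript signature.

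Total expected counts lay between 27741882 and 33933068 per microglia library and between 29615853 and 35851170 per astrocyte library. Rack1 itself stood at 98.1 and 95.2 CPM (counts scaled to library size) in WT, 40.4 and 42.0 CPM in CKO, 113 and 115 CPM in AD WT and 47.2 and 47.8 CPM in AD CKO microglia, so the knockout libraries were the low ones in both backgrounds. In astrocyte libraries it was 61.1 and 57.9, 102 and 95.7, 76.6 and 72.9, and 54.7 and 53.3 CPM in the same order. The summed level of 10 microglial markers was 28600 to 51200 CPM in the microglia libraries, against 298 to 417 CPM for 10 astrocyte markers. In the astrocyte libraries the 10 astrocyte markers summed to 10200 to 24200 CPM, 8 oligodendrocyte markers to 6580 to 18700 CPM and the 10 microglial markers to 518 to 1500 CPM, and no marker was at 0 in all libraries of either cell type.

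Interferons act on these genes through elements near the transcription start, and stretches of 80 bases upstream of it are shown for 12 genes that the results below turn on. RefSeq (GRCm38.p6, the mm10 assembly) gave promoter windows, from 250 bases before to 50 bases after a start, for 39 of the 49 genes. The ISRE core was searched on both strands as GAAA, any 2 bases and GAAA again, and is in capitals (as TTTC, 2 bases and TTTC where it lies on the gene's minus strand), and neighbouring copies may share bases.
Isg15: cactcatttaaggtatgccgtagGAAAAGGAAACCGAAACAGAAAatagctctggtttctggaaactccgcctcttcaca
Ifit1: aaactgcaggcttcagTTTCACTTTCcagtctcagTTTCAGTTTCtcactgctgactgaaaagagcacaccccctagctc
Ifit3: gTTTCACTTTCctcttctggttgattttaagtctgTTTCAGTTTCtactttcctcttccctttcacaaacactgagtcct
Ifit3b: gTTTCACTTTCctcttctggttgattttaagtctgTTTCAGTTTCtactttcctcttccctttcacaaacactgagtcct
Oas1a: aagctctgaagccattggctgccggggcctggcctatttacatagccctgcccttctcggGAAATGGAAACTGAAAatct
Oas1g: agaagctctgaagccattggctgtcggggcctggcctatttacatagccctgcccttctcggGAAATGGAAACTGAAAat
Bst2: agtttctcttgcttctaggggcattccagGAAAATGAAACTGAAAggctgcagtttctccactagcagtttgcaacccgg
Ddx60: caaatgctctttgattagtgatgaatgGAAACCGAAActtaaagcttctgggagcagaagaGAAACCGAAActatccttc
Igtp: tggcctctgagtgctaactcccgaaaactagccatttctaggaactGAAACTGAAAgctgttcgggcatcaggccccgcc
Gbp7: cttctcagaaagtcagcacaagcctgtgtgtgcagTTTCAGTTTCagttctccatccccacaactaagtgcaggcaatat
Oasl2: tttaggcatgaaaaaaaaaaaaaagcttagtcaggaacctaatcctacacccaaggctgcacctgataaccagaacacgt
Samd9l: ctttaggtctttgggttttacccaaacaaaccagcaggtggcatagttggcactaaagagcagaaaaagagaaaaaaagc
In mm10 coordinates the Isg15 stretch at chr4:156200840-156200919, minus strand, the Ifit1 stretch at chr19:34640769-34640848, plus strand and the Ifit3 stretch at chr19:34583372-34583451, plus strand were taken, all upstream of the annotated start. Next come the Ifit3b stretch at chr19:34607768-34607847, plus strand, the Oas1a stretch at chr5:120907526-120907605, minus strand and the Oas1g stretch at chr5:120887614-120887693, minus strand. Farther down are the Bst2 stretch at chr8:71537552-71537631, minus strand, the Ddx60 stretch at chr8:61928007-61928086, plus strand and the Igtp stretch at chr11:58199476-58199555, plus strand. The last are the Gbp7 stretch at chr3:142530248-142530327, plus strand, the Oasl2 stretch at chr5:114896854-114896933, plus strand and the Samd9l stretch at chr6:3399572-3399651, minus strand. An ISRE core was present in the windows of 22 of 39 genes (56.4%), against 3.99% of the 27025 genes with a window of the same length. The GAS core, searched as TTCNNNGAA, which reads the same on both strands, was present in 10 of 39 (25.6%), against 9.55% of all genes. In Bst2 a GAS match shares bases with the ISRE match. The Ifit3 and Ifit3b stretches are the same letter for letter, and those of Oas1a and Oas1g nearly so, and the counting may have split reads between the copies. Oasl2 and Samd9l, which were among the genes that rose most, are shown as windows without an ISRE match. A match describes letters and is not evidence of binding, and these genes are known interferon targets, so the shares are no independent finding.

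The summed level of the 49 genes was lowest in WT and higher in both knockout groups than in AD WT in both cell types. In microglia libraries the 49 genes together summed to 2030 and 2030 CPM in WT, 4070 and 4090 CPM in CKO, 2890 and 2980 CPM in AD WT and 4310 and 4290 CPM in AD CKO. Without Lgals3bp, the most abundant of them, CKO stood at 2990 and 2960 CPM and AD CKO at 2960 and 2880 CPM, so the higher sum in AD CKO rests on that gene. In 39 of the 49 genes both WT microglia libraries lay below all other libraries, which was so for 11.7% of all genes tested. In astrocyte libraries the sums were 1110 and 1110, 2290 and 2270, 1500 and 1480, and 3060 and 3000 CPM in the same order. Both AD CKO astrocyte libraries lay above all others for 36 genes, against 14.3% of all genes tested. Per kilobase of exon, the WT microglia levels were highest for Lgals3bp (165 CPM per kb), a secreted glycoprotein, followed by the membrane proteins Ifitm3 (90.3 CPM per kb) and Bst2 (63.6 CPM per kb). In WT astrocytes Ifitm3 (179 CPM per kb), Lgals3bp (86.6 CPM per kb) and Ifit3 (32.2 CPM per kb) led. In bulk RNA of this kind, fewer cells of a type and less RNA per cell cannot be told apart.

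**Figure D1:**
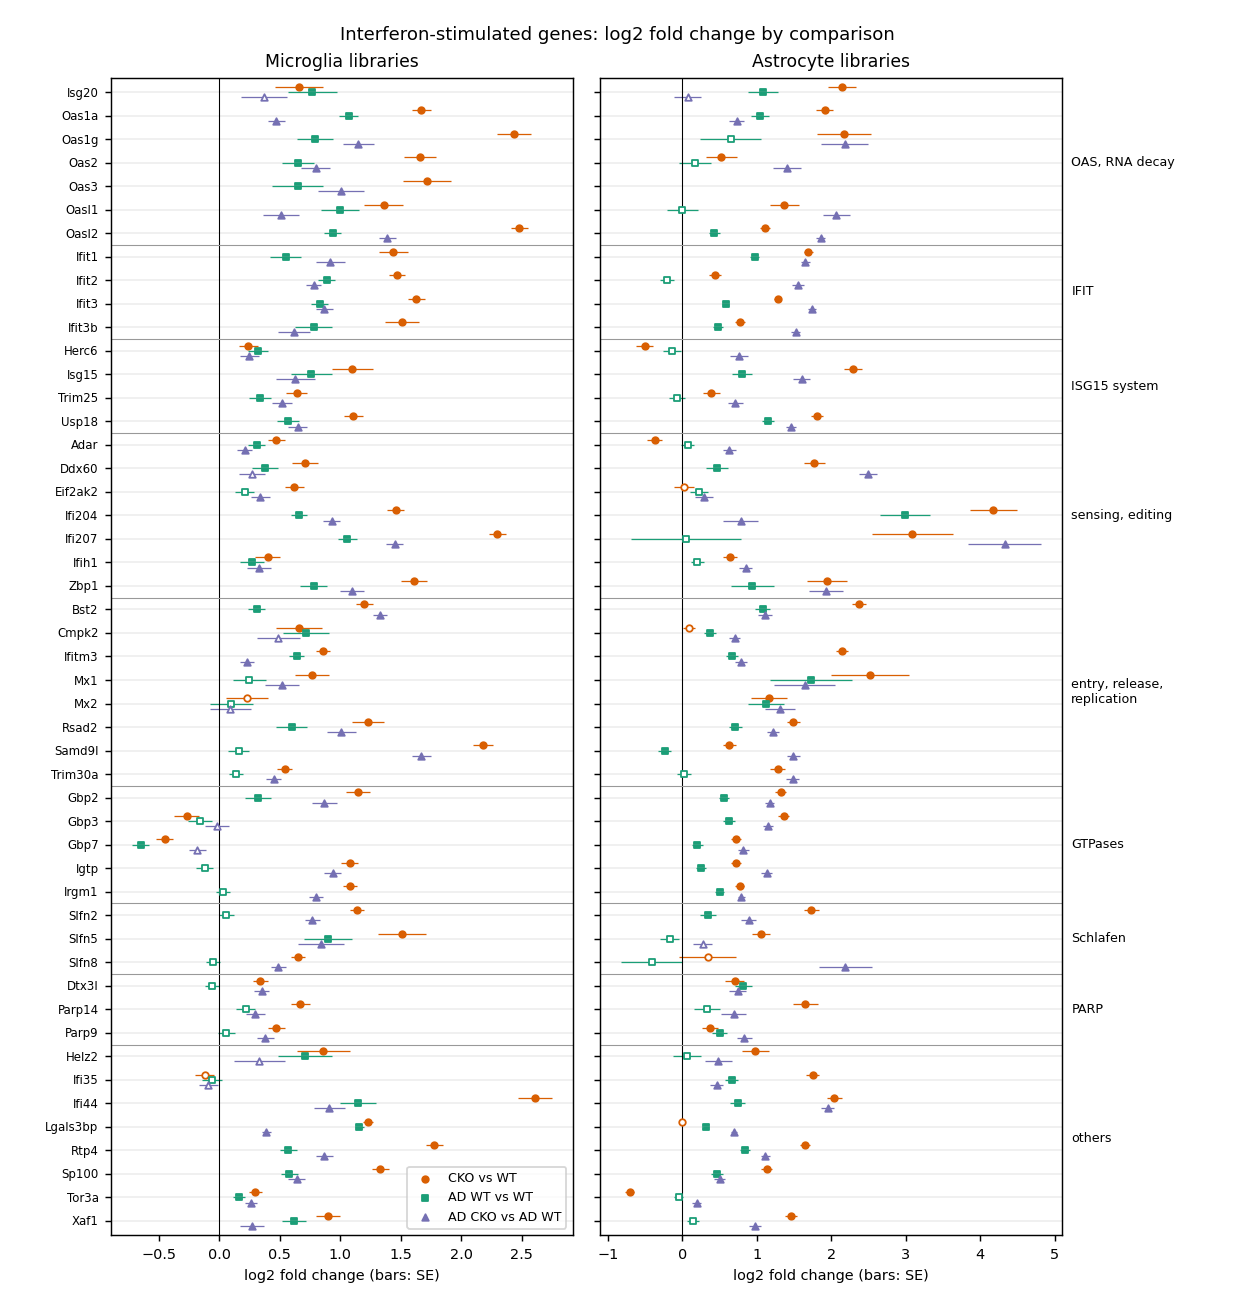
Each row is 1 of the 49 genes, ordered by role, and points give the log2 fold change with its standard error in 3 comparisons, filled where the adjusted p was under 0.05 and open where it was not. The knockout comparisons lie to the right of 0 for most genes in both cell types, and Oas3 is left out of the astrocyte panel because all WT and AD WT libraries are at 0.

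CKO was compared with WT microglia to see the effect of the Rack1 knockout in mice without the AD model. Of the 49 genes, 45 rose and 2 fell, against 17.7% and 15.9% of all genes tested, where rose and fell mean an adjusted p under 0.05. The median log2 fold change was 1.10, against 0.038 over all genes, and 27 genes rose by at least 2-fold, against 4.79% of all genes. Risers made up 7 of 7 genes of the OAS and RNA degradation group, 4 of 4 IFIT genes, 4 of 4 of the ISG15 system, 7 of 7 of nucleic acid sensing, editing and translation block, 7 of 8 of the entry, release and replication block, 3 of 3 Schlafen and 3 of 3 PARP genes. The interferon-inducible GTPases were split, with 3 of 5 up and 2 of 5 down.

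The OAS and RNA degradation group had the largest median (log2 1.67). OAS enzymes bind double-stranded RNA and start RNA decay through RNase L, and the group also holds the exonuclease Isg20. Oasl2, an OAS-like protein with ubiquitin-like domains, stood at 18.7 and 19.1 CPM in WT, 105 and 105 CPM in CKO, 36.2 and 36.1 CPM in AD WT and 97.9 and 92.1 CPM in AD CKO microglia. All 4 knockout libraries lay above all 4 others. Its log2 fold change from WT to CKO was 2.48 ± 0.07 (SE; edgeR adjusted p = 7.7e-21). Oas1g rose by 2.44 ± 0.14 (adjusted p = 4.65e-14), from 3.99 and 4.95 CPM in WT to 24.4 and 24.1 CPM in CKO. Because Oas1a and Oas1g share most of their sequence, they were also summed, and the pair then rose by 1.83 (adjusted p = 7.25e-18). The 4 IFIT genes, several of whose products bind foreign RNA, had a median of 1.49. Ifit3 stood at 27.7 and 27.8 CPM in WT, 86.1 and 86.0 CPM in CKO, 50.2 and 48.7 CPM in AD WT and 95.7 and 85.4 CPM in AD CKO. Its WT, AD WT and knockout libraries formed separate levels, and the CKO libraries lay within the range of the AD CKO ones, at 85.4 to 95.7 CPM.

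Ifi44, an interferon-induced GTP-binding protein of uncertain function, had the largest rise of the genes, at 3.99 and 4.56 CPM in WT and 28.5 and 23.9 CPM in CKO (log2 2.61 ± 0.14, adjusted p = 1.04e-14). Among the sensors, Ifi207, a DNA-binding protein of the Ifi200 family, went from 18.1 and 19.8 CPM to 96.4 and 90.0 CPM (2.30 ± 0.07, adjusted p = 1.73e-19). Ifi204 rose by 1.46 and Zbp1, a sensor of left-handed nucleic acid that can start cell death, by 1.61. Samd9l, which restricts virus replication and translation, stood at 26.6 and 21.6 CPM in WT and 110 and 109 CPM in CKO (2.18 ± 0.08, adjusted p = 2.07e-17). Rtp4, a chaperone of receptors, rose by 1.78 ± 0.07 (adjusted p = 2.81e-17), from 31.0 and 27.2 CPM to 104 and 95.9 CPM. Bst2, or tetherin, which holds budding virus at the membrane, rose from 56.1 and 58.8 CPM to 128 and 136 CPM. In the ISG15 system, Isg15 itself, a ubiquitin-like modifier, went from 5.32 and 4.23 CPM to 9.35 and 11.1 CPM, and Usp18, which removes it and limits IFNAR2 signalling, from 21.9 and 21.6 CPM to 45.4 and 48.3 CPM.

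The GTPases associated with interferon gamma did not move alike. Irgm1 rose by 1.08 and Igtp by 1.08; both act on vacuoles of intracellular microbes. Igtp stood at 96.3 and 79.0 CPM in WT and 183 and 188 CPM in CKO. Gbp7 fell by 0.45 ± 0.07 on the log2 scale (adjusted p = 6.7e-06), from 86.7 and 89.5 CPM to 67.4 and 61.7 CPM. Gbp3 fell by 0.27 ± 0.10 (adjusted p = 0.031), from 32.6 and 31.9 CPM to 28.5 and 25.0 CPM, and lost its call without WT replicate 1 (log2 −0.25), WT replicate 2 (−0.28) or CKO replicate 2 (−0.18). Both windows hold an ISRE match. Gbp2, of the same family, rose by 1.15. Ifi35, at 50.1 and 51.9 CPM in WT and 43.6 and 50.2 CPM in CKO, and Mx2, at 7.70 and 7.73 CPM in WT and 10.1 and 8.06 CPM in CKO, did not pass (log2 −0.12 ± 0.08 and 0.23 ± 0.17). Mx2 is annotated as a polymorphic pseudogene in the GENCODE M21 annotation.

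Other cell types moved with the same comparison in the microglia libraries. Microglial markers fell in 9 of 10 genes, from 49400 and 51200 CPM in sum in WT to 28600 and 29200 CPM in CKO. Neutrophil markers rose in 7 of 7 genes, from 238 and 220 CPM to 600 and 600 CPM, and border macrophage and monocyte markers in 5 of 8 genes, from 233 and 228 CPM to 412 and 412 CPM. Oligodendrocyte markers rose in 4 and fell in 2 of 8 genes, and their sum went from 3140 and 3280 CPM to 8210 and 8610 CPM. Endothelial markers rose in 5 of 8 and neuron markers in 5 of 8. Astrocyte markers rose in 6 and fell in 1 of 10, and lymphocyte markers rose in 3 and fell in 1 of 10. The part of all these cells in the rise of the interferon-stimulated genes was not tested. In the AD model the microglial markers also fell with the knockout, in 6 of 10 genes with 2 up, from 43500 and 43900 CPM to 30700 and 31400 CPM. There the neutrophil markers fell in 7 of 7 genes, from 428 and 424 CPM to 262 and 280 CPM, the oligodendrocyte markers in 8 of 8, the astrocyte markers in 8 of 10, the endothelial markers in 6 of 8 and the plasmacytoid dendritic cell markers in 2 of 3 tested, while the border macrophage markers rose in 4 of 8 from 195 and 193 CPM to 305 and 296 CPM.

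**Figure D2:**
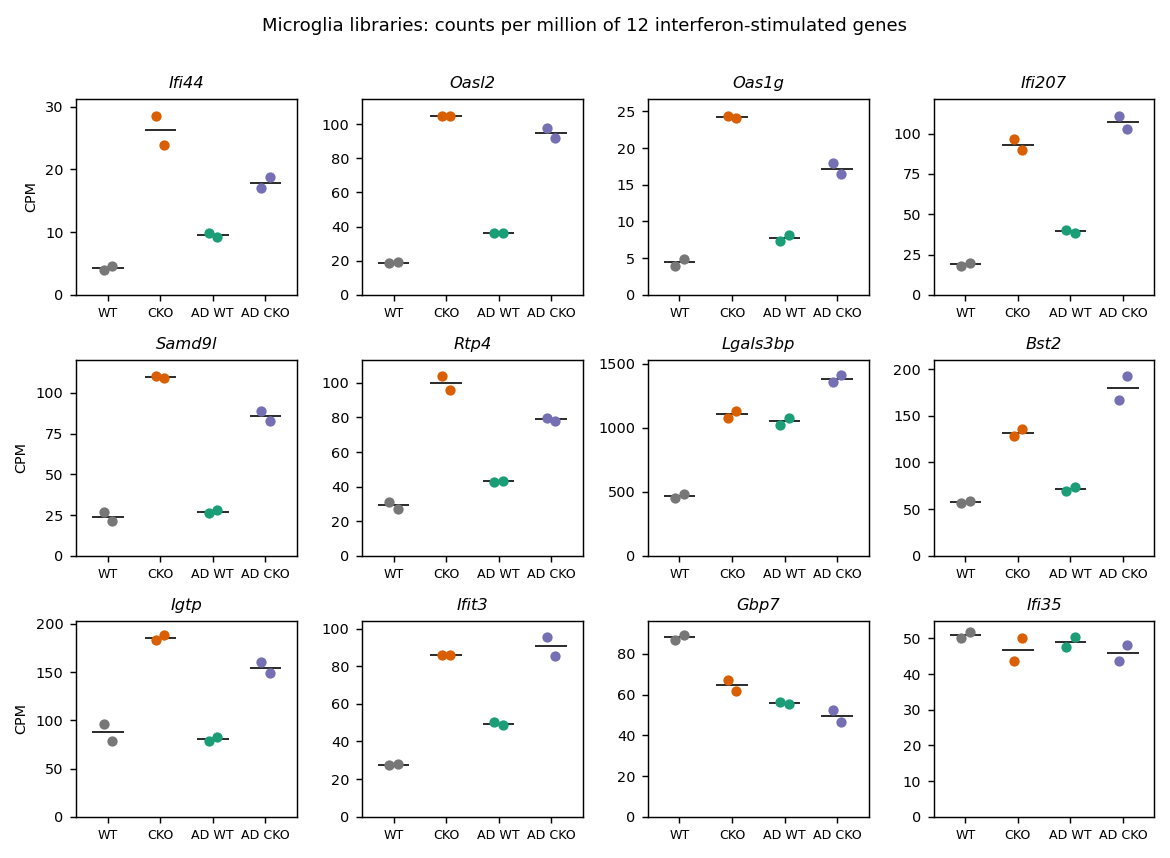
Points give the CPM of each of the 2 libraries per group for 12 genes in microglia, bars the group mean, and every vertical axis starts at 0. Oasl2, Ifi207 and Samd9l are high in both knockout groups, Lgals3bp is lowest in WT, Gbp7 is highest in WT, and the groups of Ifi35 lie within 43.6 to 51.9 CPM.

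The comparison of AD WT with WT microglia asked what the AD model changed with Rack1 intact. Here 34 of the 49 genes rose and 1 fell, against 10.7% and 8.62% of all genes tested, with a median log2 fold change of 0.568. Lgals3bp rose most among the genes named by rule, from 454 and 486 CPM in WT to 1020 and 1080 CPM in AD WT (log2 1.16 ± 0.04, adjusted p = 7.21e-18). It was near the same level in CKO, at 1080 and 1130 CPM, and higher in AD CKO, at 1360 and 1410 CPM. Ifi44 rose by 1.15 ± 0.15 (adjusted p = 9.78e-07) to 9.84 and 9.14 CPM, and Oas1a by 1.07 ± 0.08 (adjusted p = 2.19e-11), from 21.2 and 23.0 CPM to 47.6 and 45.0 CPM. Ifi207 rose by 1.06 ± 0.08, Oasl1 by 1.00 ± 0.16 and Oasl2 by 0.94 ± 0.07. All 7 OAS and RNA degradation genes and all 4 IFIT genes passed.

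The GTPases, Schlafen and PARP genes mostly did not pass with the AD model. Of 5 GTPases 1 rose and 1 fell, and of 3 Schlafen genes 1 rose, while Parp9 (log2 0.06), Parp14 (0.22) and Dtx3l (−0.06) did not pass. Igtp stood at 79.0 and 82.6 CPM in AD WT, within the range of the WT libraries, with a log2 fold change of −0.12 ± 0.07. Samd9l, at 26.0 and 27.8 CPM in AD WT, had 0.16 ± 0.09, and its groups overlapped. Slfn2, which holds immune cells in quiescence, stood at 52.1 and 53.7 CPM in WT, 53.8 and 56.6 CPM in AD WT and 115 and 118 CPM in CKO. In AD CKO it was at 98.4 and 90.0 CPM, so the knockout libraries of both backgrounds were the high ones. Gbp7 fell by 0.65 ± 0.07 (adjusted p = 3.91e-08) to 56.4 and 55.6 CPM, below its CKO level. The contrast of CKO with AD WT was not tested. Both comparisons use the same WT libraries. Endothelial markers rose in 8 of 8 genes, from 427 and 427 CPM in sum in WT to 752 and 746 CPM in AD WT, and neutrophil markers in 6 of 7. Plasmacytoid dendritic cell markers rose in 2 of the 3 genes tested, from 19.7 and 17.8 CPM to 44.6 and 47.6 CPM, and microglial markers fell in 8 of 10, to 43500 and 43900 CPM. Their part in these results was not tested.

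Within the AD model, the knockout raised 41 of the 49 genes in microglia, against 17.0% of all genes tested. By edgeR 0 genes fell, against 15.0% of all genes, with 1 at an unadjusted p under 0.05 (Gbp7) and 0 by DESeq2 and limma-voom. The median log2 fold change was 0.522, and 8 genes rose by at least 2-fold, against 2.49% of all genes. The same 41 genes also rose with the knockout without the AD model, in libraries of their own, which was so for 10.0% of all genes tested. Samd9l had the largest rise, from 26.0 and 27.8 CPM in AD WT to 89.0 and 82.6 CPM in AD CKO (log2 1.67 ± 0.08, adjusted p = 8.59e-15). Ifi207 went from 40.4 and 38.4 CPM to 111 and 103 CPM (1.45 ± 0.07, adjusted p = 2.15e-15) and Oasl2 rose by 1.39 ± 0.07 (adjusted p = 1.48e-15). Bst2 stood at 69.3 and 73.5 CPM in AD WT and 167 and 193 CPM in AD CKO (1.33 ± 0.06, adjusted p = 1.06e-14), its highest level in any group. Oas1g (1.15 ± 0.13) and Zbp1 (1.10 ± 0.10) completed the genes named by rule. The 8 genes that did not pass were Isg20, Mx2, Ifi35, Cmpk2, Gbp3, Gbp7, Ddx60 and Helz2.

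The knockout effect in microglia was smaller in the AD model for part of the genes, as tested by the interaction, which is the knockout effect with the AD model minus that without it. The interaction was below 0 for 23 of the 49 genes, against 7.19% of all genes tested, and its median was −0.438. By edgeR it was above 0 for 0 genes, against 5.53% of all genes, with 1 at an unadjusted p under 0.05 (Gbp7) and 0 by DESeq2 and limma-voom. The log2 effect was larger without the AD model for 43 of the 49 genes, whether they passed or not. The same share over all genes was not counted, and the median interaction over all genes tested was 0.0076. Ifi44 differed most (−1.70 ± 0.19, adjusted p = 2.59e-07). It rose from 9.84 and 9.14 CPM in AD WT to 17.0 and 18.8 CPM in AD CKO, against 3.99 and 4.56 CPM in WT and 28.5 and 23.9 CPM in CKO. Oas1g followed (−1.29 ± 0.19, adjusted p = 2.23e-05), at 7.32 and 8.18 CPM in AD WT and 17.9 and 16.5 CPM in AD CKO, and Oas1a (−1.20 ± 0.10, adjusted p = 2.18e-09), at 64.0 and 63.9 CPM in AD CKO against 72.0 and 68.2 CPM in CKO. The interaction passed, below 0, for 4 of 4 IFIT genes and 5 of 7 OAS and RNA degradation genes. It passed for 1 of 5 GTPases, 1 of 3 Schlafen and 1 of 3 PARP genes. Markers of other cells also had an interaction below 0, in 8 of 8 endothelial, 7 of 7 neutrophil and 8 of 10 astrocyte genes. So did 5 of 8 oligodendrocyte, 5 of 8 neuron and 3 of 8 border macrophage and monocyte genes. For the microglial markers it was above 0 in 7 of 10 genes and below 0 in 0. The part of these cells in the interaction of the 49 genes was not tested.

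The AD model was also compared within the knockout microglia. From CKO to AD CKO, 6 genes rose and 9 fell, against 7.73% and 6.92% of all genes tested, and the median log2 fold change was 0.008. Bst2 rose by 0.45 ± 0.06 (adjusted p = 7.63e-06), Rsad2, or viperin, by 0.38 ± 0.12, Lgals3bp by 0.32 ± 0.04, Herc6 by 0.32 ± 0.08, Ifit2 by 0.21 ± 0.06 and Ifi207 by 0.20 ± 0.07. Ifi44 fell by 0.55 ± 0.12 on the log2 scale (adjusted p = 0.00181), Oas1g by 0.50 ± 0.12, Gbp7 by 0.39 ± 0.07, Samd9l by 0.35 ± 0.07, Rtp4 by 0.34 ± 0.07 and Slfn2 by 0.31 ± 0.06. With no filter on low counts, which also changes the TMM scaling, 10 rose and 9 fell. The total of 15 became 9 without CKO replicate 1 or without AD CKO replicate 1. Ifit2 (0.20 and 0.18), Rsad2 (0.31 and 0.37) and Ifi44 (−0.39 and −0.45) were not called without either of those libraries. Oas1g was not called without CKO replicate 1 (−0.47) or AD CKO replicate 2 (−0.43), Ifi207 without CKO replicate 2 (0.15) or AD CKO replicate 1 (0.17), Herc6 without AD CKO replicate 1 (0.28), Ifit2 without CKO replicate 2 (0.23) and Rsad2 without AD CKO replicate 2 (0.42).

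In astrocyte libraries, CKO against WT asked what the knockout in microglia changed in astrocytes. Of the 49 genes, 42 rose and 3 fell, where 31.6% and 32.4% of all genes tested rose and fell. The median log2 fold change was 1.28, and 30 genes rose by at least 2-fold, against 14.5% of all genes. Bst2 rose most among the genes named by rule, from 13.7 and 12.8 CPM in WT to 74.5 and 62.3 CPM in CKO (log2 2.37 ± 0.09, adjusted p = 1.67e-14). It was 29.3 and 26.8 CPM in AD WT and 63.8 and 57.6 CPM in AD CKO, so the knockout groups overlapped each other and lay above the rest. Isg15 stood at 4.31 and 3.80 CPM in WT, 20.4 and 19.2 CPM in CKO, 7.51 and 6.59 CPM in AD WT and 21.5 and 21.1 CPM in AD CKO (2.29 ± 0.12 from WT to CKO, adjusted p = 1.86e-13). Ifitm3, which blocks fusion of viruses in endosomes, went from 124 and 119 CPM to 566 and 511 CPM (2.15 ± 0.08, adjusted p = 2.12e-09). Isg20, an RNA exonuclease, rose by 2.14 ± 0.19, Ifi44 by 2.04 ± 0.10 and Oas1a by 1.91 ± 0.11.

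The 3 genes that fell in CKO astrocytes had risen in CKO microglia. Tor3a, an ATPase of the endoplasmic reticulum, fell by 0.71 ± 0.06 on the log2 scale (adjusted p = 3.34e-10), from 74.7 and 75.4 CPM to 46.2 and 45.5 CPM. Herc6, the mouse ligase that attaches ISG15, fell by 0.51 ± 0.12 (adjusted p = 0.00248), from 28.5 and 30.4 CPM to 17.8 and 23.7 CPM. Adar, which edits adenosine in double-stranded RNA, fell by 0.37 ± 0.10 (adjusted p = 0.00188), from 16.8 and 17.0 CPM to 12.4 and 13.8 CPM. Lgals3bp, among the clear risers in microglia, stood at 249 and 245 CPM in WT and 242 and 250 CPM in CKO astrocytes, and did not pass. Gbp3 and Gbp7, which fell in CKO microglia, rose here by 1.36 ± 0.07 and 0.72 ± 0.07, and Ifi35, which had not passed there, rose from 17.4 and 16.5 CPM to 57.8 and 56.1 CPM. In all, 38 genes rose in both cell types, out of 45 in microglia and 42 in astrocytes and against 7.08% of the genes tested in both, and 5 moved in opposite directions, against 12.6%. Across the 49 genes the 2 cell types' log2 fold changes had a Pearson correlation of 0.37, given as a description, since genes are not independent. That value includes Oas3, whose astrocyte fold change is not reliable because both WT libraries were at 0.

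**Figure D3:**
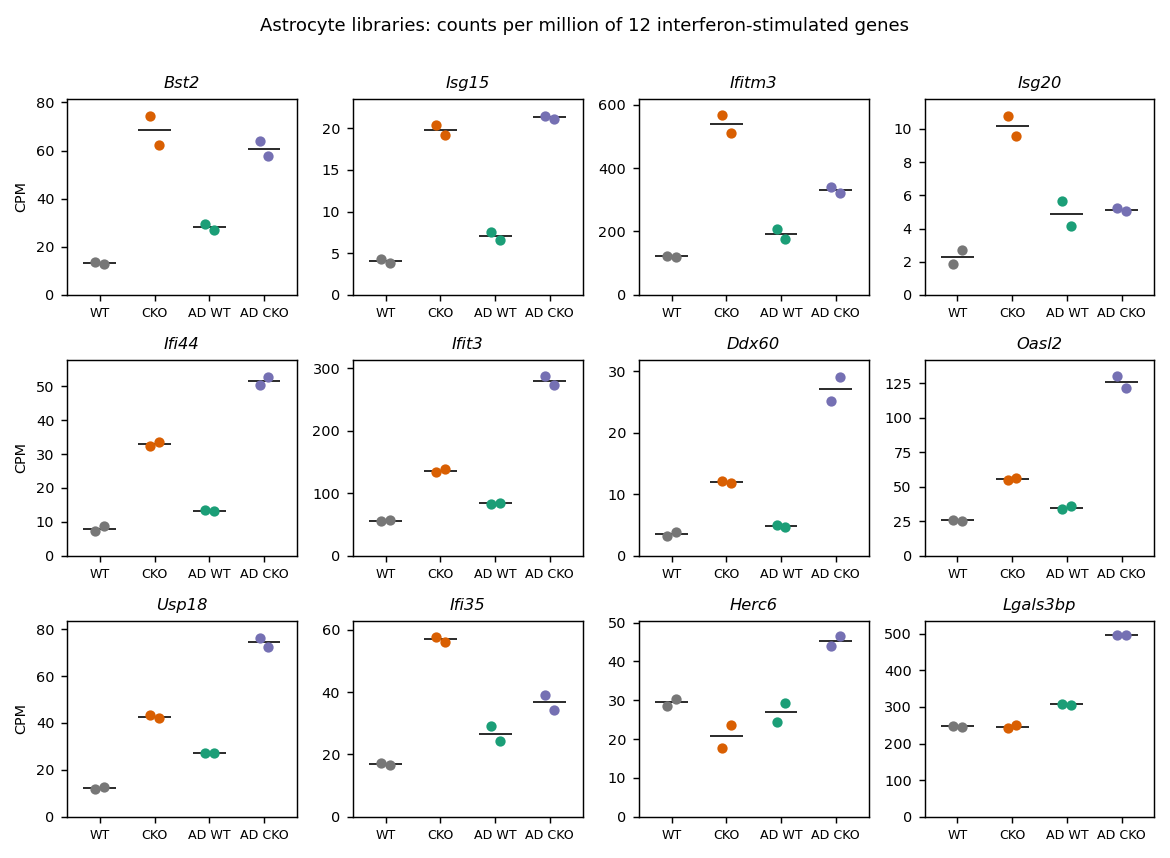
Points give the CPM of each of the 2 libraries per group for 12 genes in astrocyte libraries, bars the group mean, and every vertical axis starts at 0. Ifitm3, Isg20 and Ifi35 are highest in CKO, while Ifit3, Ddx60, Oasl2, Usp18 and Herc6 are highest in AD CKO.

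Several genes were too low in astrocyte libraries for a fold change. Oas3 was at 0 in both WT and both AD WT libraries and at 0.415 and 0.233 CPM in CKO and 0.446 and 0.240 CPM in AD CKO. With 3 counts over the group in place of 0, mean Oas3 was 6.6-fold higher in CKO than in WT. In AD CKO it was 7.59-fold higher than in AD WT. These values leave out the sampling error of the low knockout counts. Ifi207 had under 10 counts in each WT and AD WT library. Without Oas3 and Ifi207, 40 of 47 genes rose from WT to CKO and the median stayed at 1.28. The median was also 1.28 with Oas3 set at its 6.6-fold value. Ifi204, the DNA sensor, went from 0.418 and 0.186 CPM in WT to 5.27 and 5.60 CPM in CKO.

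Markers of other cells changed in the same astrocyte libraries. Astrocyte markers fell in 9 of 10 genes from WT to CKO, from 23800 and 24200 CPM in sum to 10200 and 10500 CPM. Endothelial markers rose in 7 of 8 genes, from 1710 and 1700 CPM to 4430 and 4380 CPM, and microglial markers in 9 of 10, from 522 and 518 CPM to 1490 and 1500 CPM. Lymphocyte markers rose in 7 of 10, from 1.53 and 1.42 CPM to 10.9 and 8.23 CPM. Border macrophage and monocyte markers rose in 6 of 8, from 21.7 and 22.1 CPM to 54.2 and 48.9 CPM. Neutrophil markers rose in 5 and fell in 1 of 7, from 51.6 and 53.7 CPM to 136 and 126 CPM. Neuron markers rose in 4 of 8, and oligodendrocyte markers rose in 2 and fell in 5 of 8. As a share of the level in microglia libraries of the same genotype, the microglial markers were at 1.03% in WT, 5.19% in CKO, 2.38% in AD WT and 3.45% in AD CKO. That share times the microglia level came to a median of 1.91%, 10.5%, 5.16% and 5.46% of the level of the 49 genes in astrocyte libraries. In CKO it was 10.0% of the Bst2 level, 1.07% of the Ifitm3 level and 2.67% of the Isg15 level. It exceeded 50% for 6 genes in CKO, namely Oas1g, Oas3, Ifi204, Ifi207, Dtx3l and Slfn8. The product assumes that microglial RNA in the 2 kinds of library is alike. For Slfn8 (786%), Ifi207 (424%) and Oas3 (184%) it exceeded the level measured in CKO, so the assumption did not hold for these genes. The part of endothelial, lymphocyte, border macrophage, neutrophil and other RNA was not tested.

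The AD model with Rack1 intact raised 30 of the 49 genes in astrocyte libraries and lowered 1, against 20.0% and 18.0% of all genes tested, with a median log2 fold change of 0.461. Usp18 rose most among the genes named by rule, from 11.7 and 12.6 CPM in WT to 27.0 and 27.2 CPM in AD WT (1.15 ± 0.08, adjusted p = 1.83e-10). Bst2 rose by 1.08 ± 0.10, Oas1a by 1.04 ± 0.12, Ifit1 by 0.97 ± 0.06, Rtp4 by 0.84 ± 0.07 and Dtx3l, the ubiquitin ligase partner of Parp9, by 0.82 ± 0.12. Dtx3l and Parp9 lie head to head and overlap on chromosome 16, and without strand information their reads cannot be told apart. All 5 GTPases rose, Irgm1 by 0.50 ± 0.06 and Gbp3 by 0.62 ± 0.08. Samd9l fell by 0.24 ± 0.09 (adjusted p = 0.0457), from 15.3 and 17.8 CPM to 14.0 and 14.1 CPM, a call lost with DESeq2 (−0.26) and limma-voom (−0.24). It was also lost without WT replicate 2 (−0.14), AD WT replicate 1 (−0.24) or 2 (−0.26), or AD CKO replicate 1 (−0.25) or 2 (−0.25). Of the 49 genes, 20 rose with the AD model in both cell types, out of 34 in microglia and 30 in astrocytes and against 4.08% of the genes tested in both, and the correlation across genes was 0.098. Microglial markers rose in 9 of 10 genes, to 1030 and 1050 CPM in sum, and oligodendrocyte markers fell in 8 of 8, from 13900 and 14100 CPM to 6580 and 6770 CPM, and their part was not tested.

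The knockout in the AD model raised 47 of the 49 genes in astrocyte libraries, against 25.1% of all genes tested. By edgeR 0 genes fell, against 27.0% of all genes, also 0 at an unadjusted p under 0.05 and by DESeq2 and limma-voom. The median log2 fold change was 1.11, and 26 genes rose by at least 2-fold, against 7.91% of all genes. Only Isg20, at 5.63 and 4.14 CPM in AD WT and 5.21 and 5.06 CPM in AD CKO, and Slfn5 did not pass. Ddx60, a helicase that aids RNA sensing, rose most among the genes named by rule, from 4.98 and 4.64 CPM to 25.1 and 29.0 CPM (2.49 ± 0.12, adjusted p = 2.41e-13). Oasl1 rose by 2.07 ± 0.18, Ifi44 by 1.95 ± 0.09 and Oasl2, from 33.8 and 35.8 CPM to 130 and 122 CPM, by 1.86 ± 0.06. Ifit3 went from 83.4 and 84.4 CPM to 287 and 274 CPM (1.74 ± 0.05, adjusted p = 4.11e-17), and Ifit1 rose by 1.65 ± 0.06. All 4 groups of Ifit3 were apart, in the order WT, AD WT, CKO and AD CKO. With Ifit3 and Ifit3b summed, the log2 fold change was 1.67. In 40 of the 49 genes the level rose with the knockout in both cell types of the AD model, out of 41 in microglia and 47 in astrocytes. The share was 6.19% for the genes tested in both. The correlation across genes was 0.44, with Oas3 included, which was at 0 in both AD WT astrocyte libraries. The microglial markers summed to 1030 and 1050 CPM in AD WT and 1070 and 1060 CPM in AD CKO, with 7 of 10 genes up and 2 down. Astrocyte markers fell in 9 of 10 genes, from 22800 and 23600 CPM to 14600 and 14700 CPM. Oligodendrocyte markers rose in 8 of 8 genes to 18700 and 18600 CPM and endothelial markers in 6 of 8 to 2380 and 2390 CPM. Border macrophage and monocyte markers rose in 4 of 8, from 24.1 and 22.6 CPM to 43.9 and 48.7 CPM. Neuron markers rose in 3 of 8. Lymphocyte markers rose in 1 and fell in 2 of 10, and neutrophil markers rose in 1 and fell in 3 of 7. The part of these cells was not tested.

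**Figure D4:**
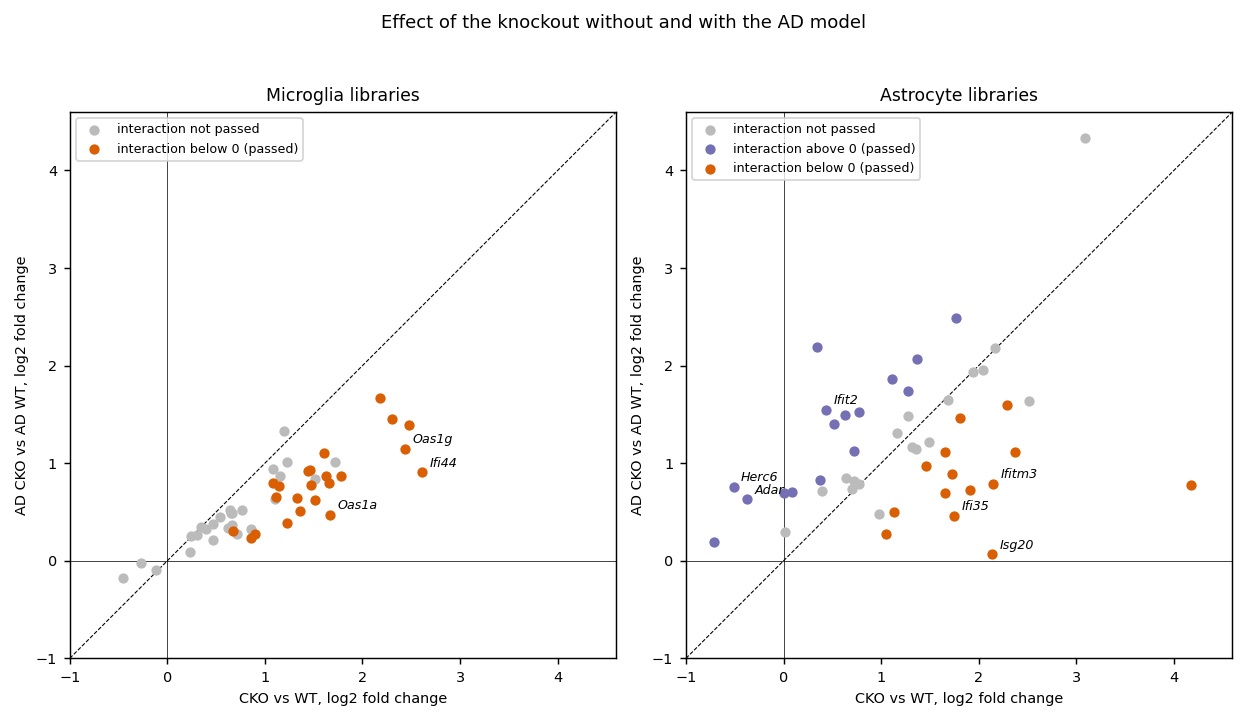
Each point is 1 gene, with the log2 effect of the knockout without the AD model on the horizontal axis and within it on the vertical axis, in microglia (49 genes) and astrocytes (48 genes, without Oas3); colour gives the interaction call and the dashed line equal effects. In microglia 43 of 49 genes lie below the line, where the median interaction over all genes tested was 0.0076. In astrocytes 16 genes passed above and 14 below the line.

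In astrocytes the knockout effect differed between backgrounds in both directions. The interaction was above 0 for 16 and below 0 for 14 of the 49 genes, against 29.5% and 28.3% of all genes tested, so the share of genes was close to that of all genes. Herc6 (1.27 ± 0.17, adjusted p = 2.51e-05) went from 24.5 and 29.2 CPM in AD WT to 44.1 and 46.6 CPM in AD CKO, where it had fallen without the AD model. Ifit2 (1.11 ± 0.12, adjusted p = 3.24e-08) stood at 19.0 and 21.8 CPM in WT, 28.0 and 27.4 CPM in CKO, 18.1 and 17.3 CPM in AD WT and 50.4 and 53.1 CPM in AD CKO. The AD CKO libraries of Ifit2 were far above the other 6. Adar (1.00 ± 0.13, adjusted p = 7.66e-07) rose to 27.7 and 27.3 CPM in AD CKO. At the other end, Isg20 (−2.07 ± 0.27, adjusted p = 6.79e-07), Ifitm3 (−1.37 ± 0.11, adjusted p = 1.88e-06) and Ifi35 (−1.29 ± 0.13, adjusted p = 1.71e-08) were highest in CKO. Ifitm3 stood at 208 and 176 CPM in AD WT and 341 and 320 CPM in AD CKO, and Ifi35 at 29.2 and 24.2 CPM and 39.1 and 34.4 CPM. The endothelial markers were highest in CKO, at 4430 and 4380 CPM in sum against 2380 and 2390 CPM in AD CKO. So were the microglial markers (1490 and 1500 CPM against 1070 and 1060 CPM) and the neutrophil markers (136 and 126 CPM against 28.9 and 28.4 CPM). The lymphocyte, neuron and border macrophage sums were also highest in CKO. The astrocyte sum was lowest in CKO, the oligodendrocyte sum highest in AD CKO and the plasmacytoid dendritic cell sum highest in WT. The part of these cells was not tested.

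From CKO to AD CKO astrocytes, 33 of the 49 genes rose and 9 fell, where 31.4% and 28.4% of all genes tested rose and fell, with a median log2 fold change of 0.614. Mx2 rose by 1.27 ± 0.20, Ifit3b by 1.23 ± 0.06, Oasl2 by 1.18 ± 0.06, Ddx60 by 1.18 ± 0.11, Herc6 by 1.13 ± 0.12 and Adar by 1.07 ± 0.09. All 4 IFIT genes and all 5 GTPases rose. Isg20 fell by 0.99 ± 0.17 on the log2 scale, Slfn5 by 0.96 ± 0.12, Ifitm3 by 0.70 ± 0.08, Ifi35 by 0.63 ± 0.08, Parp14 by 0.63 ± 0.16 and Slfn2 by 0.50 ± 0.09. Lgals3bp, at 242 and 250 CPM in CKO, reached 497 and 497 CPM in AD CKO, its highest level in these libraries.

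The pathway above the 49 genes was read from a list of ligands, receptors and signalling genes. None of the 17 interferon ligand genes listed was high enough to be tested in either cell type, and their summed count was 3 to 16 per microglia library and 1 to 12 per astrocyte library. Ifnb1, the gene of interferon beta, had 15 counts in AD CKO replicate 2 and 5 counts in AD CKO replicate 1 of the microglia, which is too few to compare groups. From WT to CKO microglia, 4 of 6 receptor genes rose and 1 fell, against 17.7% and 15.9% of all genes tested. The risers were Ifnar1 (log2 0.54 ± 0.05), Ifnar2 (0.38 ± 0.05), Il10rb (0.14 ± 0.04) and Ifnlr1, which was low (means of 0.524 CPM in WT and 1.26 CPM in CKO). Ifngr1 fell (log2 −0.57 ± 0.04), from a mean of 1160 to 780 CPM. The kinase gene Ikbke, which acts in interferon induction, went from a mean of 0.704 to 14.5 CPM (log2 4.36 ± 0.22, adjusted p = 4.87e-15). Irf7, a regulator of interferon genes that is itself interferon-inducible, rose by 1.39 ± 0.08, and the feedback inhibitor Socs3 fell by 1.37 ± 0.07 on the log2 scale. With the AD model alone Irf7 (0.74 ± 0.08) rose, and Ifngr1 (log2 −0.41 ± 0.04) and the adaptor gene Sting1 (−0.48 ± 0.04) fell. Within the AD model, the knockout raised Ikbke (3.89 ± 0.20), Ifnar2 (0.44 ± 0.05) and Stat2 (0.66 ± 0.07).

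In astrocytes Stat2 fell from WT to CKO (log2 −0.56 ± 0.08), where 42 of the 49 genes rose. Its mean level was 23.4 CPM in WT, 15.9 CPM in CKO, 15.3 CPM in AD WT and 47.0 CPM in AD CKO. Its interaction was 2.18 ± 0.11 (adjusted p = 4.6e-13). Irf9 rose from WT to CKO (log2 0.97 ± 0.06). Of the list of 6 kinase and transcription factor genes that holds both, 2 rose and 4 fell, against 31.6% and 32.4% of all genes tested. From WT to CKO, Irf7 (1.45 ± 0.08), Irf1 (1.65 ± 0.07) and Irf8 (2.27 ± 0.13), a factor of myeloid cells, rose and the RNA sensor Tlr3 fell (log2 −1.45 ± 0.05). Within the AD model the knockout raised Stat2 (1.62 ± 0.08), Irf7 (1.74 ± 0.07) and Irf9 (0.89 ± 0.06).

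Genes with and without an ISRE core in the promoter window both rose. In CKO against WT microglia, the 22 genes with a match had a median log2 fold change of 1.12, with 20 up and 2 down, and the 17 genes without one had 0.90, with 16 up. The 10 genes with no RefSeq window had 0.94. In astrocytes the medians were 1.34 with a match, 0.98 without one and 1.65 with no window. With the knockout in the AD model they were 0.72, 0.49 and 0.58 in microglia and 1.19, 0.74 and 1.21 in astrocytes. These medians are a description over genes and were not tested. The windows shown above include Oasl2 and Samd9l, which rose in all 4 knockout comparisons and have no match, and Gbp7, which has one and fell in CKO microglia.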

How the data were processed

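The authors' tables, one for each cell type, give expected counts as deposited: estimated reads per gene that need not be whole (27.0% to 33.6% of non-zero values per library were fractional), not scaled to library size. Tools named in the submitters' processing notes are HISAT2, fastp and StringTie, with mm10 as the genome build. Their versions and roles, the annotation, the counting step and its use of strand are not given in the sources used here. Per the labels' protocols, libraries came from 10 ng of total RNA with a SMART-Seq kit and were read in pairs of 150 bases.

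After rounding, the 8 libraries of a cell type were fitted together with edgeR 4.0.16 (R 4.3.3), using filterByExpr, TMM factors and robust quasi-likelihood F-tests, two-sided. This left 17318 genes in microglia and 20116 in astrocytes, with a common biological coefficient of variation of 0.0678 and 0.0579. P-values were adjusted by Benjamini-Hochberg over all genes tested in a comparison, and a gene rose or fell at an adjusted p under 0.05. CPM carry the TMM factors, and values after ± are standard errors of log2 fold changes. Libraries of a group differed by more than sampling noise (chi-square per degree of freedom 3.75 to 6.94). Exon lengths and annotations came from GENCODE M21, and promoter windows from RefSeq GRCm38.p6. The scripts were tested on simulated data.

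The 49 genes, the roles, the pathway and marker lists and the tests were chosen with earlier results of these data known. The rule for printed genes took, in each comparison, the 6 highest log2 fold changes among risers and the 6 lowest among fallers (3 each for the interaction). A mean of at least 5 CPM was required and, except for the interaction, groups that did not overlap. Up to 4 pathway genes with the smallest p were added per comparison, 1 of which is not reported here, and other single values were chosen after they were seen. Alternatives were RLE size factors, no filter, a filter of 1 CPM in 2 libraries, DESeq2 1.42.0, limma-voom (limma 3.58.1), the compared groups alone, a replicate block, leaving out each library, and sums of near-identical genes.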

Additional observations from a re-analysis of the deposited data

Results flagged for a closer look

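The effect of the knockout differed between the mice with and without the AD model, by the test of the interaction, for part of the 49 genes in each cell type. In microglia the effect was more negative in the AD model for 23 genes, against 7.19% of all genes tested. The interactions (log2) of the genes named by rule were −1.70 for Ifi44, −1.29 for Oas1g and −1.20 for Oas1a. In the same libraries the interaction was below 0 for 8 of 8 endothelial and 7 of 7 neutrophil markers and above 0 for 7 of 10 microglial markers. The part of these cells was not tested. In astrocyte libraries the effect was more positive in the AD model for 16 genes and more negative for 14, against 29.5% and 28.3% of all genes tested, which is close to the share of the 49. Those named by rule were Herc6 (1.27), Ifit2 (1.11), Adar (1.00), Isg20 (−2.07), Ifitm3 (−1.37) and Ifi35 (−1.29).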

How the results depend on the processing

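The number of the 49 genes called stayed within 1.5 times the main count under the alternatives run, except for the AD model within the knockout in microglia, where leaving out 1 library gave 9 to 17 in place of 15. Leaving out 1 library in microglia gave 43 to 47 for CKO against WT, 25 to 36 for AD WT against WT, 35 to 43 for the knockout within the AD model and 20 to 24 for the interaction. Leaving out 1 library in astrocytes gave 43 to 45 for CKO against WT, 26 to 31 for AD WT against WT, 45 to 47 for the knockout within the AD model, 38 to 44 for the AD model within the knockout and 28 to 31 for the interaction. Where that left 1 library in a group, it was assumed to vary like the others. Deviations of same-numbered libraries correlated weakly (−0.0323 to 0.149), which does not settle whether the replicate numbers pair the libraries. In the same order of comparisons, with the AD model within the knockout before the interaction, a fit with the replicate number as a block called 47, 37, 44, 17 and 27 genes in microglia and 45, 32, 47, 45 and 32 in astrocytes. For the 76 pairs of a gene and a comparison printed by rule, 1112 of 1136 alternative fits kept direction and call, 24 lost the call and 0 reversed. Those lost were of Gbp3, of Samd9l in astrocytes and of 6 genes of CKO against AD CKO microglia, all given above except Ifi207, also lost with the filter of 1 CPM in 2 libraries (log2 0.19). Ifit3 with Ifit3b, and Oas1a with Oas1g, were also summed, and both sums had the direction of the first gene in each comparison. Depth limits Mx1, Oas1g, Oas3, Ifi204, Ifi207, Zbp1 and Slfn8 in astrocytes, which lay under 1 CPM in WT.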
